A study of Mus musculus with 8 samples.

Results

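The 10 genes described here make up the IL-4 receptor axis and alternative activation of macrophages. They were chosen by name: the receptor genes Il4ra, Il13ra1, Il2rg and Il21r, the transcription factor gene Stat6, and the activation genes Arg1, Chil3, Retnla, Mrc1 and Pdcd1lg2. The choice was made with earlier results of these data known. All 10 were found among the 55376 genes of the count table. Of these, 8 passed the filter on low counts and were tested, and 2, Retnla and Pdcd1lg2, did not pass it.

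The series measured polyadenylated RNA in macrophages grown from mouse bone marrow, in 2 libraries for each of 4 groups. The groups were DNMT3A-HET (HET) macrophages given IL-6, HET control macrophages, wild-type (WT) macrophages given IL-6, and WT control macrophages. Marrow came from 3 male mice of each genotype, aged 13 weeks, and all cultures grew in M-CSF at 50 ng/mL, the growth factor that drives macrophage differentiation. IL-6 was present at 10 ng/mL for 2 days, and RNA was taken on day 8. No culture is labelled as having received IL-4 or IL-13. The labels describe neither the allele behind DNMT3A-HET nor which mouse gave which library, so the p-values reflect differences between libraries that may in part be technical.

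IL-4 and IL-13 are type 2 cytokines, and both act through a receptor chain encoded by Il4ra. IL-4Rα pairs with the common gamma chain to form the receptor for IL-4 alone, or with IL-13Rα1 to form a receptor for both cytokines, and the chains' JAK kinases then phosphorylate STAT6. In mouse macrophages, phosphorylated STAT6 switches on Arg1, Chil3, Retnla, Mrc1 and Pdcd1lg2, the pattern known as alternative activation, and IL-6, which signals through gp130 and STAT3, is known to induce Il4ra.

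Sequence just before the first annotated exon is shown for the receptor gene with the largest change and for 3 activation genes that were nearly silent. These stretches come from RefSeq (GRCm38.p6, the assembly of mm10) and run 5′ to 3′ on the gene's own strand. Capitals mark a match to TTCNNNNGAA, the spacing that STAT6 prefers, or to TTCNNNGAA, which most other STAT factors prefer. Both motifs read the same on either strand, and the searches found no window of these 4 with more than 1 match.
Il4ra, chr7:125552021-125552119, plus strand: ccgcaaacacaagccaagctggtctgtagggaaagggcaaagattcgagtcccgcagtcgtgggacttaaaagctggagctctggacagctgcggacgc
Retnla, chr16:48842359-48842550, plus strand: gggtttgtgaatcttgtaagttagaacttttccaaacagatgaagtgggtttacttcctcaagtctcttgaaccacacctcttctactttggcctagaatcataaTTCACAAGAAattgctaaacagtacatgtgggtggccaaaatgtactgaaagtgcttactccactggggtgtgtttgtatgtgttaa
Pdcd1lg2, chr19:29410669-29410918, plus strand: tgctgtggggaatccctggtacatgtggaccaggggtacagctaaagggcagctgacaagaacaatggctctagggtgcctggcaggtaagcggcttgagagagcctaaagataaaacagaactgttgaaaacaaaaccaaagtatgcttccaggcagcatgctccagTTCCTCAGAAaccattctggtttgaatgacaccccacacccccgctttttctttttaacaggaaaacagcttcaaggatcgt
Chil3, chr3:106167565-106167814, minus strand: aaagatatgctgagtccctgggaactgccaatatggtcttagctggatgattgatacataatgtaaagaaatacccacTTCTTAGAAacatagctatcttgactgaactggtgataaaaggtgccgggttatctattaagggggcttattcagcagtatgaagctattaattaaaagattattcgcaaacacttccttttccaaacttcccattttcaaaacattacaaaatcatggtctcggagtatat
The match is TTCACAAGAA in Retnla, TTCCTCAGAA in Pdcd1lg2 and TTCTTAGAA in Chil3. In the Il4ra stretch of 99 bases neither motif was found, which says only that these letters are not in that window. Promoter windows were matched for 9 of the 10 genes, and among them TTCNNNNGAA occurred in 2 and TTCNNNGAA in 1. Of 32851 mouse promoter windows, 6.95% held TTCNNNNGAA and 8.3% held TTCNNNGAA. These matches describe letters and not bound sites.

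Library totals ran from 18926641 to 24881197 counts in 7 libraries and reached 50137897 in HET IL-6 number 2. Values below are TMM-scaled counts relative to library size (CPM), on which a floor of 3 counts corresponds to 0.0608 to 0.161 CPM, for counting error only. Dnmt3a, the gene named in the genotype, had 140.1 and 212.7 CPM in HET IL-6 libraries against 174.5 and 183.2 CPM in WT IL-6 libraries. It had 166.3 and 248.3 CPM in HET control libraries against 275.2 and 243.5 CPM in WT control libraries. Between genotypes its log2 fold change was not called, at -0.32 in control (edgeR adjusted p = 0.506) and -0.02 in IL-6 (0.972). Over all alternatives these values ran from -0.64 to -0.06 in control and from -0.37 to 0.26 in IL-6. Both HET libraries numbered 1 lay below WT, and both numbered 2 did not, so HET stands below for the libraries labelled HET. Genotype calls of the 10 genes are also given without those numbered 2. For the other genes and markers named below no such values are given. The 10 macrophage markers, among them Adgre1, Csf1r and Cd68, were all tested and summed to 14372.9 to 16951.0 CPM. After IL-6 in HET, 5 were called higher and 1, Csf1r, lower (edgeR adjusted p under 0.05), beside 8.87% and 9.41% of all tested genes. In WT 1 was higher (7.91%). Between genotypes in IL-6, 5 were higher and 2 lower in libraries labelled HET (13.2% and 8.80%). Of 7 T and NK cell markers, Cd3e, Cd3g and Ncr1 were at 0 in every library. Cd4 and Lck were tested, and Cd4 fell after IL-6 in WT (-2.48 ± 0.65, edgeR adjusted p = 0.0233). This list summed to 1.02 to 5.34 CPM.

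After IL-6 the receptor genes and Mrc1 were higher, Stat6 was not called, and the other activation genes were at trace counts in all 4 groups. In each genotype 5 of the 8 tested genes were called higher after IL-6 and none lower. A gene was called at an edgeR adjusted p under 0.05, and of all 13721 tested genes 18.3% were called in HET (8.87% higher, 9.41% lower) and 18.3% in WT (7.91% higher, 10.4% lower). The median log2 fold change of the 8 was 0.68 in HET and 0.93 in WT, beside 0.01 and -0.01 over all tested genes. Since earlier results were known when the genes were chosen, these shares and medians describe the list and are no independent test. The 5 genes were Il4ra, Il13ra1, Il2rg, Il21r and Mrc1 in both. Without both HET libraries numbered 2 their log2 fold changes in HET were 2.58, 1.26, 0.67, 0.66 and 1.53 in that order, and all were called (edgeR adjusted p at most 0.0105). In bulk RNA, more cells of a type and more RNA per cell cannot be told apart. Of 7 monocyte markers 5 were tested. The list summed to 50.2 to 56.6 CPM in HET IL-6 and 29.7 to 39.6 CPM in HET control libraries. In WT it summed to 71.8 to 89.4 CPM with IL-6 against 41.0 to 49.4 CPM in control. Ccr2, at 23.3 to 69.7 CPM, made up most of that sum. After IL-6, 2 of the 5 were called higher in HET and 3 in WT, beside 8.87% and 7.91% of all tested genes. Vcan rose by 1.61 ± 0.19 in HET (edgeR adjusted p = 4.63e-05) and 2.42 ± 0.20 in WT (1.21e-06). Between genotypes in IL-6, 2 of the 5 were lower in libraries labelled HET (8.80% of all tested genes). The part of these cells in these results was not tested.

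Il4ra (chromosome 7, 125552120 to 125579474, plus strand, mm10), the chain shared by both receptor types, changed most. HET macrophages had 1086.3 and 1225.3 CPM with IL-6 against 181.2 and 192.8 CPM in control. WT macrophages had 910.7 and 998.0 CPM with IL-6 against 145.5 and 139.2 CPM in control. Every IL-6 library thus lay far above every control library, with no overlap. The rise was 6.18-fold in HET (log2 2.63 ± 0.09, SE; edgeR adjusted p = 4.38e-10) and 6.70-fold in WT (2.74 ± 0.09, adjusted p = 4.55e-10). The response did not pass the test for a difference between genotypes (HET minus WT -0.12 ± 0.12, edgeR adjusted p = 0.633). On the opposite strand the gene shares 9.51% of its exon bases with Gm44876, which itself had at most 0.124 CPM.

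Il13ra1 (chromosome X, 36112110 to 36171259), which pairs with IL-4Rα in the receptor for IL-13, was a far weaker transcript that also rose. It had 18.0 and 14.6 CPM in HET IL-6 against 7.52 and 5.86 CPM in HET control libraries, and 20.9 and 16.2 CPM in WT IL-6 against 7.53 and 9.49 CPM in WT control libraries. The IL-6 libraries again all lay above the controls. The log2 fold change was 1.27 ± 0.17 in HET (edgeR adjusted p = 1.29e-04) and 1.14 ± 0.17 in WT (2.80e-04). Il13ra2, the decoy receptor for IL-13, was at 0 in all 8 libraries, which at a floor of 3 counts allows up to 0.0608 to 0.161 CPM.

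Il2rg (chromosome X, 101264378 to 101268255, minus strand), the common gamma chain, rose least. HET libraries had 96.0 and 87.3 CPM with IL-6 against 60.2 and 67.1 CPM in control, and WT libraries had 73.2 and 84.4 CPM with IL-6 against 63.4 and 63.7 CPM in control. IL-6 and control libraries did not overlap within either genotype. The log2 fold change was 0.52 ± 0.09 in HET (edgeR adjusted p = 0.00118) and 0.31 ± 0.09 in WT (0.0336), and averaged over genotype 0.42 ± 0.07 (3.21e-04). The WT call was lost without WT IL-6 number 2 (0.21, adjusted p = 0.208), WT control number 1 (0.31, 0.0811) or WT control number 2 (0.31, 0.0506), and the HET call was lost without both HET libraries numbered 1 (0.39, 0.235). In all, 8 of 18 alternatives lost the WT call, among them scaling to total counts (0.27, edgeR adjusted p = 0.0619), a fit on the WT groups alone (0.32, 0.0824), and fits without both HET libraries numbered 1 (0.32, 0.0757) or numbered 2 (0.31, 0.0840). The gene shares 30.5% of its exon bases on the same strand with Gm20489, listed at 0 counts, and its level is uncertain for that reason.

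Il21r (chromosome 7, 125603429 to 125633570), the IL-21 receptor chain that also pairs with the common gamma chain, begins 24 kb downstream of Il4ra. It had 161.7 and 170.5 CPM in HET IL-6 against 102.6 and 106.0 CPM in HET control libraries. In WT it had 146.8 and 158.9 CPM with IL-6 against 88.8 and 82.4 CPM in control. All IL-6 libraries exceeded all controls, and the log2 fold change was 0.67 ± 0.08 in HET (edgeR adjusted p = 4.35e-05) and 0.83 ± 0.08 in WT (6.09e-06). Its ligand gene Il21 was at 0 reads in every library.

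Around Il4ra, the tested genes Nsmce1, Il4ra and Il21r were called higher after IL-6 in both genotypes, by unlike amounts, and the other tested genes were not called. Of all tested genes 8.87% were called higher in HET and 7.91% in WT. Of 10 annotated genes within 200 kb, 6 were tested, Il4ra and Il21r among them. Nsmce1, a subunit of the SMC5/6 complex, rose by 0.32 ± 0.09 in HET (edgeR adjusted p = 0.0253) and 0.53 ± 0.09 in WT (0.00101). The log2 fold changes of Kdm8, Gtf3c1 and D430042O09Rik did not pass the test in either genotype and ranged from -0.29 (D430042O09Rik in WT) to 0.36 (Kdm8 in HET). Il4ra therefore had the largest fold change of the 6 in both genotypes, Il21r the next, and the processed pseudogene Gm4973 just upstream had at most 0.0536 CPM.

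**Figure D1:**
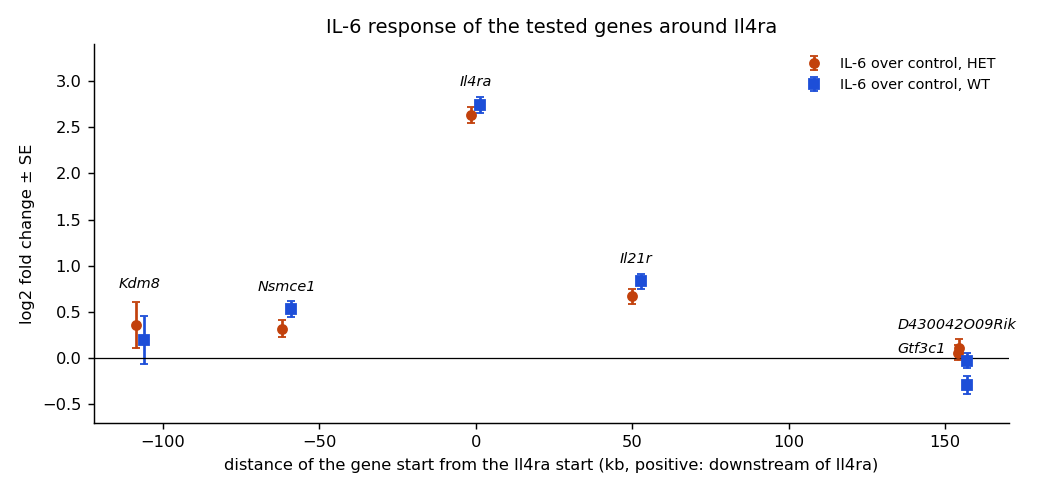
Fitted log2 fold change of IL-6 over control, with SE bars, for the 6 tested genes within 200 kb of Il4ra, by distance of the gene's start from that of Il4ra in kb; circles are HET and squares WT, each from 2 libraries per group. Il4ra stands at 2.63 in HET and 2.74 in WT, Il21r at 0.67 and 0.83, and Gtf3c1 at 0.06 and -0.03.

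Stat6 (chromosome 10, 127642986 to 127660957), the transcription factor downstream of the receptor, stayed in one range. It had 357.0 and 364.5 CPM in HET IL-6 against 378.6 and 402.5 CPM in HET control libraries, and 339.2 and 381.7 CPM in WT IL-6 against 375.9 and 324.7 CPM in WT control libraries. The WT groups overlapped, and the HET controls lay slightly above HET IL-6. Averaged over genotype the log2 fold change was -0.04 ± 0.06 (edgeR adjusted p = 0.736), and no comparison of Stat6 passed the test in any alternative run. RNA does not show phosphorylation of the protein.

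**Figure D2:**
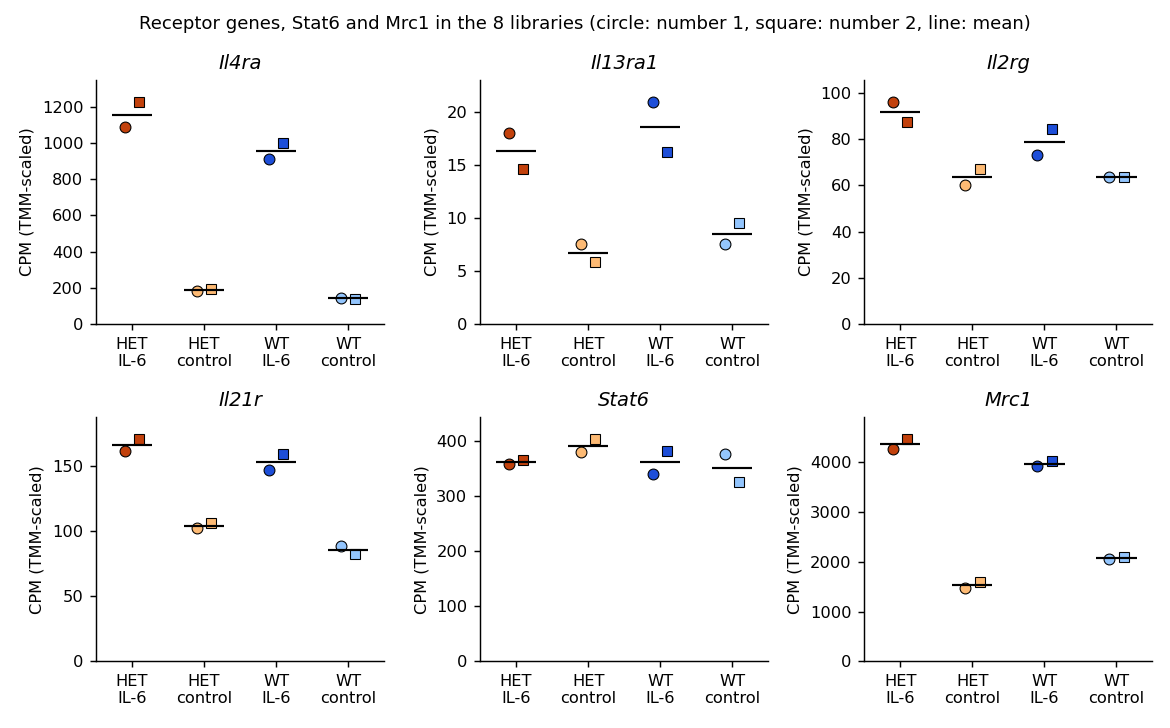
TMM-scaled CPM of 6 genes in each of the 8 libraries; circles are libraries numbered 1, squares those numbered 2, and lines the mean of 2. The IL-6 libraries of Il4ra lie at 910.7 CPM or more and its controls at 192.8 CPM or less, while the 4 groups of Stat6 share one range.

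Mrc1 (chromosome 2, 14229392 to 14332057), the mannose receptor CD206, was the most abundant of the 10 genes per kilobase of exon in every group. HET libraries had 4259.9 and 4461.1 CPM with IL-6 against 1472.9 and 1603.2 CPM in control. WT libraries had 3920.1 and 4024.4 CPM with IL-6 against 2050.6 and 2099.3 CPM in control. IL-6 and control libraries were fully apart, and HET controls lay below WT controls. The rise was 2.84-fold in HET (log2 1.50 ± 0.08, edgeR adjusted p = 1.94e-08) and 1.91-fold in WT (0.94 ± 0.08, adjusted p = 1.71e-06).

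The other activation genes gave only a handful of reads (the plot of raw counts shows them on one scale). Arg1 (chromosome 10, 24915221 to 24927484), which encodes arginase 1, had 8 and 23 reads in HET IL-6 against 5 and 7 in HET control libraries, and 24 and 11 in WT IL-6 against 5 and 15 in WT control libraries. Scaled, that was 0.332 and 0.466 CPM against 0.219 and 0.293 CPM in HET, and 0.992 and 0.590 CPM against 0.199 and 0.662 CPM in WT. The WT groups overlapped, and the HET groups were apart by a few reads.

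Arg1 was not called in any of the 6 comparisons, and averaged over genotype its log2 fold change was 0.81 ± 0.40 (edgeR adjusted p = 0.169). Without WT control number 2 that value was 1.34 (adjusted p = 0.0387). Arg2, the mitochondrial arginase, rose by 1.00 ± 0.17 (edgeR adjusted p = 4.79e-04), with 2.74 and 2.98 CPM in HET IL-6 against 1.44 and 1.51 CPM in HET control libraries, and 2.85 and 3.75 CPM in WT IL-6 against 1.55 and 1.63 CPM in WT control libraries. Arg2 is uncertain, since 28.1% of its exon bases overlap other genes on the opposite strand.

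Chil3 (chromosome 3, 106147554 to 106167564, minus strand), which encodes the chitinase-like protein Ym1, had 17 and 12 reads in HET IL-6 against 35 and 24 in HET control libraries. WT libraries had 50 and 9 reads with IL-6 against 9 and 12 in control. The HET groups were apart, with IL-6 lower, while WT IL-6 number 1 alone held the high WT value and number 2 matched the controls. In CPM this was 0.705 and 0.243 against 1.53 and 1.00 in HET, and 2.07 and 0.482 against 0.359 and 0.530 in WT. Neither genotype's change was called (HET -1.58 ± 0.61, edgeR adjusted p = 0.0943; WT 1.58 ± 0.64, adjusted p = 0.111). In HET it was called without HET IL-6 number 1 (-2.35, 0.0483) or either WT IL-6 library (-1.58, 0.0292 without number 1; -1.59, 0.0245 without number 2), and in WT without WT IL-6 number 2 (2.22, 0.00937). Without a filter on low counts both were called (HET -1.56, edgeR adjusted p = 0.00297; WT 1.59, 0.00452). A fit on the HET groups alone also called HET (-1.60, 0.0349), and WT was called without both HET libraries numbered 2 (1.58, 0.0448). Chil4, a near-identical neighbour that can share reads with Chil3, had 1 read in all, so the split between them is uncertain.

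Retnla (chromosome 16, 48842551 to 48844461), which encodes RELMα, had 1 read in WT IL-6 number 2 and 0 in the other 7 libraries. Pdcd1lg2 (chromosome 19, 29410919 to 29471161), which encodes the checkpoint ligand PD-L2, had 1 read in HET IL-6 number 2 and 0 in the other 7. Both thus lay under the floor of 3 counts in every library and no fold is given. Cd274, the PD-L1 gene that neighbours Pdcd1lg2, had 92.1 and 78.7 CPM in HET IL-6 against 82.1 and 87.6 CPM in HET control libraries, and 73.4 and 93.1 CPM in WT IL-6 against 61.1 and 73.8 CPM in WT control libraries. It was well detected and overlapped between groups (averaged 0.15 ± 0.09, edgeR adjusted p = 0.220), with 14.1% of its exon bases on the opposite strand of AC119228.1.

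**Figure D3:**
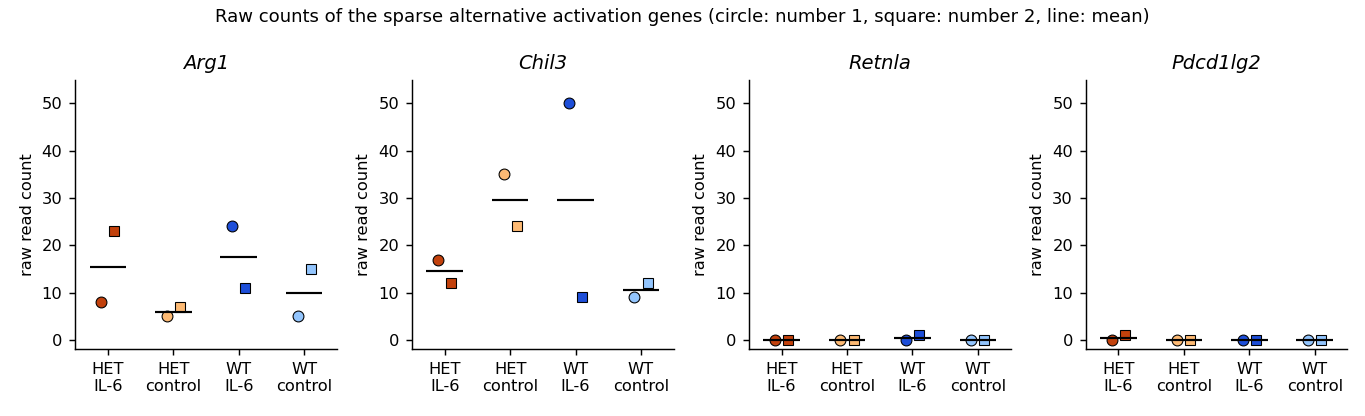
Raw read counts, not scaled for library size, of 4 activation genes in each library; circles are libraries numbered 1, squares those numbered 2, and lines the mean of 2. No library exceeds 50 reads for any of the 4 genes, and Retnla and Pdcd1lg2 reach at most 1.

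Per kilobase of exon, the order of the genes' levels changed with IL-6 at the place of Il4ra. In HET IL-6 libraries the order was Mrc1 at 684.4, Il4ra at 192.6, Stat6 at 82.0, Il21r at 50.0, Il2rg at 38.4 and Il13ra1 at 4.39 CPM per kilobase. In HET control libraries Mrc1 stood at 241.4, Stat6 at 88.7, Il21r at 31.4, Il4ra at 31.2 and Il2rg at 26.7 CPM per kilobase, with Il21r and Il4ra overlapping. Il4ra was thus the second in both IL-6 groups, the fourth in HET control and the fifth in WT control.

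WT IL-6 libraries gave 623.5 for Mrc1, 159.0 for Il4ra and 81.9 for Stat6, and WT control libraries 325.7 for Mrc1, 79.6 for Stat6, 26.6 for Il2rg, 25.8 for Il21r and 23.7 for Il4ra, all in CPM per kilobase. Il2rg and Il21r overlapped in WT control libraries. Chil3 and Arg1 came after these receptor genes in all 4 groups, at 0.115 to 0.781 CPM per kilobase, with Chil3 above Arg1 in the group means; their libraries overlapped in every group other than HET control.

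Between genotypes, few of these genes differed. In control macrophages 2 of the 8 were called between HET and WT: Il4ra higher and Mrc1 lower, where 4.85% of all tested genes were called, 2.81% higher and 2.05% lower. The CPM values above show both without overlap. Il4ra was higher in libraries labelled HET by 0.39 ± 0.09 on the log2 scale (edgeR adjusted p = 0.0249), and Mrc1 was lower by -0.43 ± 0.08 (0.00977). Without both HET libraries numbered 2, Il4ra gave 0.35 (adjusted p = 0.306) and Mrc1 -0.49 (0.101), with the direction kept and the call lost, and the same happened without both numbered 1 (0.44, 0.249, and -0.37, 0.444).

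Single libraries also decided these calls. Il4ra was not called without HET control number 1 (0.44, edgeR adjusted p = 0.152), HET control number 2 (0.35, 0.175) or WT control number 2 (0.36, 0.0608), and Mrc1 was not called without HET control number 1 (-0.37, 0.208). Il21r, at 0.28 ± 0.08 (adjusted p = 0.0605), was not called, but was without WT IL-6 number 1 (0.28, 0.0473), WT IL-6 number 2 (0.28, 0.0475) or WT control number 1 (0.34, 0.0310), with DESeq2 (0.28, 0.0333) and with no filter (0.29, 0.0450).

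In IL-6-treated macrophages 1 of the 8, Il4ra, was called higher in libraries labelled HET (0.28 ± 0.09, edgeR adjusted p = 0.0353), a share close to the 13.2% of all tested genes called higher (22.0% were called in all, 8.80% lower). With offsets for GC content and exon length this value was 0.00 (adjusted p = 0.987). It was not called without both HET libraries numbered 2 (0.19, 0.472) or both numbered 1 (0.37, 0.12), nor when HET IL-6 number 1 (0.35, 0.0730) or number 2 (0.17, 0.373) was left out, nor without HET control number 1 (0.28, 0.0617) or number 2 (0.28, 0.0613), or WT IL-6 number 1 (0.21, 0.254). Mrc1, lower in HET controls, was at 0.13 ± 0.08 after IL-6 (adjusted p = 0.240), and with those offsets at 0.30 and called (0.0121).

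**Figure D4:**
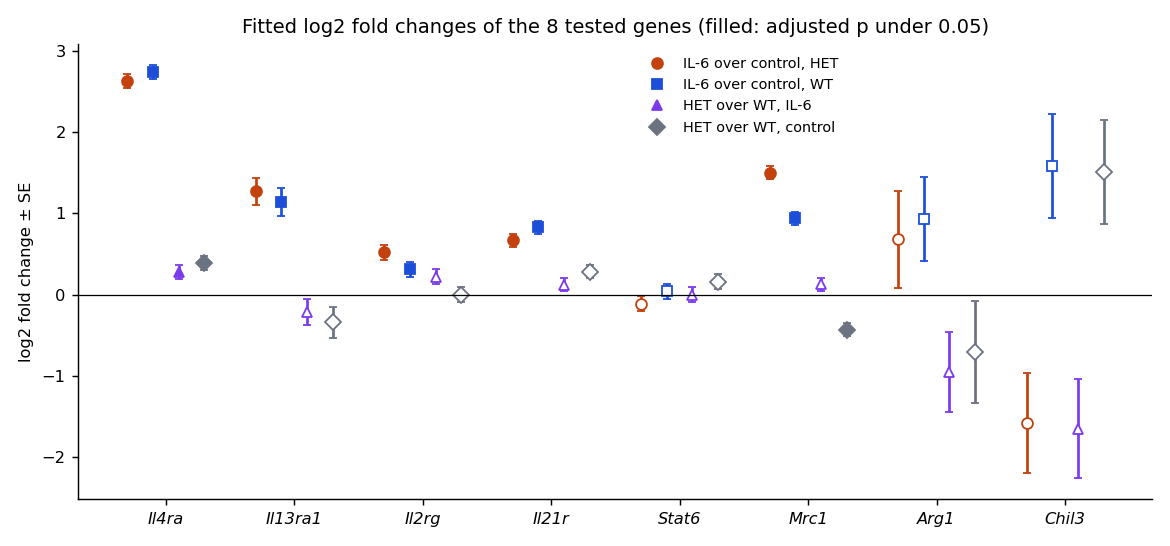
Fitted log2 fold changes with SE bars of the 8 tested genes in 4 comparisons, each group with 2 libraries; filled symbols have an edgeR adjusted p under 0.05. Filled symbols stand for Il4ra, Il13ra1, Il2rg, Il21r and Mrc1 under IL-6 in both genotypes, and between genotypes for Il4ra (0.28 and 0.39) and, in control, Mrc1 (-0.43).

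The IL-6 response itself differed between genotypes for Mrc1 and Chil3, 1 of the 8 called higher and 1 lower where 8.12% of all tested genes were called, 4.52% higher and 3.60% lower. For Mrc1 the HET response exceeded the WT response by 0.57 ± 0.11 (edgeR adjusted p = 0.00796). HET control libraries lay below WT control libraries, while HET IL-6 libraries lay above WT IL-6 libraries by an amount that was not called. The value was 0.60 without both HET libraries numbered 2 and 0.54 without both numbered 1. It was 0.51 when HET IL-6 number 2 was left out and 0.51 without HET control number 1. Each of these fits keeps 1 library in a group, and each lost the call. A replicate block also lost it. In all, 12 of 17 alternatives kept the call and 5 lost it, with values of 0.51 to 0.63.

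For Chil3 the HET response was below the WT response by -3.16 ± 0.88 (edgeR adjusted p = 0.0445), on libraries of 9 to 50 reads. Without WT IL-6 number 1, the library with 50 reads, it was -1.70 (adjusted p = 0.351). It was also not called without HET IL-6 number 2 (-2.44, 0.156), HET control number 1 (-2.82, 0.168) or number 2 (-3.43, 0.0506), WT control number 1 (-2.91, 0.216) or number 2 (-3.46, 0.0864), or both HET libraries numbered 2 (-2.69, 0.0931), nor with GC and length offsets (-3.09, 0.0505). Between HET and WT in IL-6, Chil3 was at -1.65 and not called (edgeR adjusted p = 0.0684), but 4 of 16 alternatives called it: no filter (-1.63, 0.00150), and fits without both HET libraries numbered 1 (-2.42, 0.0228), HET IL-6 number 1 (-2.43, 0.0458) or WT IL-6 number 2 (-2.30, 0.00568). In control it was at 1.51 and not called (adjusted p = 0.199), and was called with no filter (1.52, 0.0191).

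Chil3 is also expressed by neutrophils and monocytes. Summed neutrophil and precursor markers, of which 4 of 11 were tested, S100a8, S100a9, Ngp and Mmp8, were 6.18 to 7.21 CPM in HET IL-6 and 5.06 to 6.12 CPM in HET control libraries. They were 11.2 to 12.7 CPM in WT IL-6 and 2.87 to 3.88 CPM in WT control libraries, and no marker of the list was at 0 in every library. Mmp8, at 1.51 to 9.97 CPM, made up most of that sum in the IL-6 libraries and was called higher after IL-6 in both genotypes (0.88 ± 0.23 in HET, edgeR adjusted p = 0.0156; 2.19 ± 0.24 in WT, 1.55e-05), unlike Chil3 in HET. S100a9, a calprotectin subunit gene of neutrophils and monocytes, had group means in the same order as those of Chil3 within each genotype. It had 0.497 and 0.628 CPM in HET IL-6 against 1.22 and 1.17 CPM in HET control libraries, and 1.2 and 0.858 CPM in WT IL-6 against 0.319 and 0.441 CPM in WT control libraries. The groups did not overlap in either genotype. S100a9 was called lower after IL-6 in HET (-1.05 ± 0.34, edgeR adjusted p = 0.0482) and higher in WT (1.45 ± 0.41, 0.0224). The HET call rests on 12 and 31 reads with IL-6 against 28 and 28 in control. The WT call rests on 29 and 16 reads with IL-6 against 8 and 10 in control. Values of S100a9 with a library left out are not given, and the gene was named after its values were seen. For the difference of responses 2 of the 4 markers were called, both lower in HET, where 3.60% of all tested genes were. They were S100a9 (-2.50 ± 0.53, edgeR adjusted p = 0.0117) and Mmp8 (-1.31 ± 0.33, 0.0285). S100a8 and Ngp were called in no comparison, and the part of these cells in the Chil3 values was not tested.

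Of the receptor's relatives and ligands, 15 genes were listed and 7 were tested. Averaged over genotype, 3 were called higher after IL-6 and 1 lower, beside 10.8% and 12.8% of all tested genes (23.6% in all), and the list's median log2 fold change was 0.17. Il7r, whose chain joins the common gamma chain in the IL-7 receptor, rose by 0.63 ± 0.08 (edgeR adjusted p = 4.77e-05). Il2ra, the high-affinity chain of the IL-2 receptor, rose by 1.69 ± 0.34 (0.00212) on 4 to 52 reads per library, and Il15, a cytokine that signals through the gamma chain, fell by 0.48 (1.51e-04). The responses differed between genotypes for 2 of the 7, both higher in HET, beside 4.52% of all tested genes. These were Il4 and the TSLP receptor gene Crlf2 (0.92 ± 0.23, edgeR adjusted p = 0.0278). In group means Crlf2 went from 14.9 to 19.5 CPM with IL-6 in HET and from 14.0 to 9.63 CPM in WT.

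Il4, the ligand gene, was also called. It had 7.42 and 6.00 CPM in HET IL-6 against 1.01 and 1.67 CPM in HET control libraries, and 4.09 and 6.00 CPM in WT IL-6 against 3.19 and 3.09 CPM in WT control libraries. IL-6 libraries were above controls in both genotypes, and HET controls were the lowest group. The log2 fold change was 2.30 ± 0.26 in HET (edgeR adjusted p = 2.20e-05) and 0.67 ± 0.24 in WT (0.0665), and the responses differed by 1.63 ± 0.35 (0.0130), a call lost without both HET libraries numbered 1 (1.17, 0.204), HET IL-6 number 1 (1.47, 0.0556) or HET control number 1 (1.32, 0.0897). In control, Il4 was lower in libraries labelled HET by -1.22 ± 0.28 (0.0278), a call lost without both numbered 1 (-0.90, 0.332), HET control number 1 (-0.91, 0.290) or WT control number 2 (-1.24, 0.0540), and with GC and length offsets (-1.09, 0.0590).

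Kif3a, a kinesin gene that ends 1014 bases from Il4 on the other strand, was looked up after the Il4 values were seen. It had 206.7 and 203.4 CPM in HET IL-6 against 40.5 and 46.6 CPM in HET control libraries, and 123.9 and 142.3 CPM in WT IL-6 against 83.8 and 65.1 CPM in WT control libraries. Its log2 fold change was 2.23 ± 0.12 in HET (edgeR adjusted p = 1.72e-08) and 0.84 ± 0.11 in WT (1.29e-04), moving alike with Il4. Whether its reads are counted in Il4 was not tested, and the strand setting of the counting is not given in the sources used here. Summed mast cell, basophil and eosinophil markers were 3.69 CPM in both HET IL-6 libraries and 2.89 to 4.14 CPM in HET control. They were 1.93 to 2.27 CPM in WT IL-6 against 5.78 to 8.88 CPM in WT control libraries, with Fcer1a at 0 throughout. Kit, at 1.32 to 7.77 CPM, made up most of that sum. Kit was lower in HET than WT control libraries (-1.19 ± 0.27, edgeR adjusted p = 0.0251), and its response was higher in HET (2.24 ± 0.41, 0.00498). Unlike Il4, Kit fell after IL-6 in WT (-2.12 ± 0.30, 1.71e-04). Cpa3 and Siglecf, also tested, were called in no comparison, and the part of these cells in the Il4 values was not tested. Il13 had 1 read in all.

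Among 22 genes of the signalling chain, 21 were tested, and averaged over genotype 5 rose and 5 fell after IL-6, where 10.8% of all tested genes rose and 12.8% fell (median log2 fold change 0.02, beside -0.01 over all tested genes). Jak3, the kinase bound to the common gamma chain, rose by 1.13 ± 0.07 (edgeR adjusted p = 2.08e-08), with 64.0 and 74.6 CPM in HET IL-6 against 26.9 and 28.7 CPM in HET control libraries, and 47.3 and 46.8 CPM in WT IL-6 against 25.2 and 24.2 CPM in WT control libraries. Its groups were fully apart in each genotype, and 7.55% of its exon bases are shared with Insl3. Ptpn1, a phosphatase that dampens JAK signalling, rose by 0.61 ± 0.05 (8.02e-07), Stat3 rose by 0.56 ± 0.06 (4.76e-06), and Irs2, the adaptor that couples IL-4Rα to PI3 kinase, fell by 0.77 (1.49e-06).

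No gene of the signalling list was called for a difference of the IL-6 response between genotypes, where 8.12% of all tested genes were. After IL-6, 8 of the 21 were higher and 1 was lower in libraries labelled HET, where 13.2% and 8.80% of all tested genes were, among them Jak3 (0.56 ± 0.09, edgeR adjusted p = 0.00105), Tyk2 (0.44 ± 0.09, 0.00460) and Ptpn1 (0.35 ± 0.07, 0.00485), all higher. In control, 1 of 21 was called, the adaptor gene Dok2 (0.38 ± 0.08, edgeR adjusted p = 0.0234), a share near the 4.85% of all tested genes.

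Other genes of IL-4-activated macrophages went both ways. Of 35 listed, 30 were tested, and averaged over genotype 7 rose and 9 fell after IL-6, where 10.8% and 12.8% of all tested genes did, with a median log2 fold change of -0.13 beside -0.01 over all tested genes. Ch25h, which makes 25-hydroxycholesterol, rose by 2.17 ± 0.08 (edgeR adjusted p = 2.53e-10), and Tfec, a macrophage transcription factor, by 0.90 ± 0.07 (1.63e-07). Cd200r1, an inhibitory receptor, rose by 0.67 ± 0.05 (5.05e-07), and Il1rn, the IL-1 receptor antagonist, by 1.26 ± 0.11 (3.40e-06).

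The galactose-type lectin genes Mgl2 and Clec10a, named after their values were seen, changed by -2.17 ± 0.37 (edgeR adjusted p = 7.81e-04) and -1.62 ± 0.23 (4.30e-04) in WT. Clec10a had 13.6 and 14.0 CPM in HET IL-6 against 11.1 and 16.7 CPM in HET control libraries, and 5.67 and 8.58 CPM in WT IL-6 against 25.1 and 18.0 CPM in WT control libraries. The HET groups overlapped and the WT groups did not, and the responses differed by 1.61 ± 0.31 (0.0107). Mgl2 differed by 2.08 ± 0.50 (0.0220), and since the lectins are close paralogs the split of reads between them is uncertain. Irf4, a STAT6 partner also named after its values were seen, fell by 1.19 (3.78e-06).

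Between genotypes, 3 of the 30 were higher and 3 lower in HET control libraries, where 2.81% and 2.05% of all tested genes were. After IL-6, 5 were higher and 5 lower, where 13.2% and 8.80% of all tested genes were, so the share that was higher lay near that of all genes. For the difference of responses, 5 of the 30 were called higher in HET and 4 lower, beside 4.52% and 3.60% of all tested genes. Klf4, a transcription factor gene, and Atp6v0d2, a proton pump subunit gene, had higher responses in HET (1.11 ± 0.16, edgeR adjusted p = 9.40e-04, and 1.84 ± 0.28, 0.00196). Flt1, the VEGF receptor 1 gene, had a lower one (-2.45 ± 0.26, 1.72e-04), as had the transglutaminase gene Tgm2 (-0.62 ± 0.11, 0.00336). In group means Klf4, Atp6v0d2 and Tgm2 moved in opposite directions in the genotypes. With IL-6, Klf4 went from 46.7 to 77.6 CPM in HET and from 59.4 to 45.5 CPM in WT. Atp6v0d2 went from 8.19 to 13.0 CPM in HET and from 16.4 to 7.08 CPM in WT. Tgm2 went from 399.6 to 340.0 CPM in HET and from 294.5 to 384.5 CPM in WT. Flt1 stood at 1.49 and 2.03 CPM in HET IL-6 against 9.01 and 9.79 CPM in HET control libraries, and at 5.91 and 4.77 CPM in WT IL-6 against 4.74 and 5.47 CPM in WT control libraries. It fell in HET without overlap, and the WT groups overlapped.

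**Figure D5:**
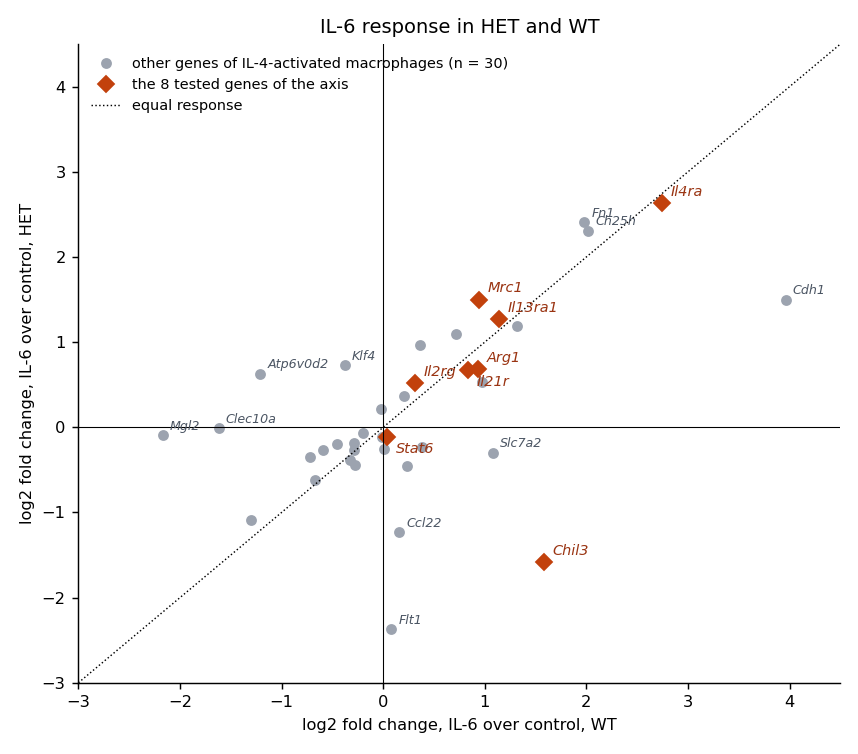
Fitted log2 fold change of IL-6 over control in HET (vertical) against WT (horizontal), for the 8 tested genes (diamonds) and 30 other genes of IL-4-activated macrophages (circles); the dotted line marks equal responses. Il4ra lies near the line at 2.63 and 2.74, Mrc1 above it at 1.50 and 0.94, and Chil3 far below it at -1.58 and 1.58.

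Arginine metabolism, the pathway of Arg1, showed 2 of 16 tested genes higher and 4 lower after IL-6, averaged over genotype, where 10.8% and 12.8% of all tested genes were; the share that was higher lay near that of all genes. Besides Arg2, Gatm, which starts creatine synthesis, fell by 0.38 (edgeR adjusted p = 0.00292), Oaz1, the ornithine decarboxylase antizyme, by 0.21 (0.00651), and Ass1, which rebuilds arginine from citrulline, by 0.30 (0.0107). In group means Ass1 fell in HET only, from 41.2 to 26.6 CPM, and went from 30.2 to 31.0 CPM in WT. Between genotypes, 2 of the 16 were higher and 1 lower in HET control libraries, where 2.81% and 2.05% of all tested genes were, and 6 higher and 4 lower in HET IL-6 libraries, where 13.2% and 8.80% of all tested genes were. The responses differed between genotypes for 4 of the 16, beside 8.12% of all tested genes. Aldh18a1 (0.91 ± 0.15, 0.00268) and the arginine transporter Slc7a1 (0.60 ± 0.11, 0.00609) had higher responses in HET, and Ass1 (-0.66 ± 0.15, 0.0176) and the transporter Slc7a2 (-1.39 ± 0.33, 0.0197) had lower ones. In group means, Aldh18a1 went from 54.4 to 82.0 CPM with IL-6 in HET and from 62.0 to 49.9 CPM in WT. Slc7a1 went from 153.4 to 219.2 CPM in HET and from 158.3 to 149.0 CPM in WT. Slc7a2 went from 4.33 to 3.51 CPM in HET and from 3.48 to 7.34 CPM in WT. Nos2, which competes with arginase for arginine, had 2 to 16 reads per library and was not tested.

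Of 13 relatives of Chil3, Retnla, Mrc1 and Pdcd1lg2, only Ly75, Pla2r1 and Cd274 passed the filter. None of the 3 was called in any of the 6 comparisons, where 4.85% to 23.6% of all tested genes were.

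By pattern over the 8 libraries, the genes most like Il4ra were Lix1, Gja1 and Ccl12, with a root mean square difference of centred log2 CPM of 0.25, 0.25 and 0.26 beside Il4ra's own 1.35 about its mean. Genes close to Mrc1 included Gpr85 (0.11) and Cept1 (0.14), beside its own 0.63. For Chil3 the nearest, Cxcl14, Runx2 and Sh2d1b1, lay at 0.29, 0.36 and 0.37 beside its own 0.58, a looser match. For Arg1, Bcap29 and Smim15 lay at 0.12 and Tmem184c at 0.13, beside 0.36, but Arg1 had 5 to 24 reads per library, and the 0.5 CPM added before taking logs is about its own level, so single reads move its pattern and the closeness of these matches says little. Retnla and Pdcd1lg2, with 1 read each, have no pattern to match.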

How the data were processed

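The authors deposited raw gene counts for 8 libraries. Tools named in the submitters' processing notes are STAR 2.7.9a for mm10, featureCounts 1.6.2, SAMtools 1.9 and fastp 0.12.4. Neither the annotation release nor the strand setting is stated there (not given in the sources used here). Rows matched annotation release M21 by position for 99.4% of genes, and 25 of 26 symbols that had become dates were restored. With edgeR 4.0.16 (R 4.3.3), genes were filtered by filterByExpr (minimum count 10), which left 13721, and scaled by TMM. A robust quasi-likelihood F test, 2-sided, used all 8 libraries, 1 mean per group and 4 residual degrees of freedom, and was tested on simulated counts. Its spread also borrows from all tested genes, so small p-values do not rest on those 4 degrees of freedom alone. Each SE is the absolute log2 fold change divided by the square root of F. It is a rough guide where the change is very small. P-values were adjusted by Benjamini-Hochberg over all tested genes. Likeness used log2(CPM + 0.5) among tested genes reaching 5 CPM as the mean of a group, and 1 gene it named is not reported here. Members, pathway lists and markers were chosen with earlier results of these data known. Besides the members, up to 4 genes of each list, those with the smallest p, were named, plus genes within 200 kb of Il4ra and Cd274. Mgl2, Clec10a, Irf4, Kif3a, S100a9 and other markers, and the genes Il13ra2, Il21, Il13, Chil4 and Nos2, were named outside that rule after their values were seen. Replicate libraries differed by more than sampling noise: chi-square per gene was 6.82 in HET IL-6, 6.43 in HET control, 12.7 in WT IL-6 and 18.5 in WT control, while the fit shares 1 spread over groups. Alternatives included DESeq2 1.42.0, other scalings, no filter, GC and length offsets, a replicate block and left-out libraries.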

Additional observations from a re-analysis of the deposited data

Results flagged for a closer look

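The response of Mrc1 to IL-6 differed between genotypes by 0.57 on the log2 scale (HET minus WT; edgeR interaction test, adjusted p = 0.00796), higher in the libraries labelled HET. That of Chil3 differed by -3.16 (edgeR adjusted p = 0.0445), lower in those libraries, on 9 to 50 reads per library. Both were picked out because the difference itself passed the test. Over the 6 genes that were tested and not picked out, the edgeR adjusted p of the difference was 0.370 to 0.902.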

How the results depend on the processing

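The calls of Il4ra, Il13ra1, Il21r and Mrc1 after IL-6 were kept in both genotypes in all alternatives run. With 1 library left out, the number of the 8 genes called ranged from 5 to 6 after IL-6 in HET, 4 to 5 in WT and 5 to 6 averaged, from 0 to 3 between HET and WT in control, 0 to 3 in IL-6, and 0 to 2 for the difference of responses, where the full data gave 5, 5, 5, 2, 1 and 2. Without a filter the count was 4 in control and 2 in IL-6. Without both HET libraries numbered 1 it was 0 in control and 1 for the difference, and without both numbered 2 it was 0 in control, in IL-6 and for the difference. DESeq2 gave 1 for the difference, with no adjusted p for Chil3. The cause of these changes was not tested.

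The labels do not say that a replicate number pairs libraries, and the numbers were not taken as pairs: deviations of same-numbered libraries correlated at 0.15 in HET and -0.11 in WT between IL-6 and control, -0.06 between genotypes in control and 0.02 in IL-6. With a replicate block 0 of the 8 genes were called between HET and WT in IL-6. For the difference 1 of the 8 was called, Chil3 (-2.99, edgeR adjusted p = 0.0403), while the call of Mrc1 was lost (0.57, 0.0686). The block also ended the call of Il2rg in WT (0.31, 0.103) and of Il4ra between genotypes in IL-6 (0.28, 0.0565). Of all tested genes the block called 339 in place of 666 in control and 506 in place of 1114 for the difference. Crossing the numbers in WT, chosen after seeing the data, called 4435, 4443, 5144 and 3121 genes for IL-6 in HET, in WT, averaged and the difference, against 2508, 2515, 3243 and 1114.

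With GC and length offsets the HET against WT value in IL-6 turned to 0.01 for Il13ra1 and -0.10 for Il21r, and that of Dnmt3a to 0.01 without a filter and 0.26 without both HET libraries numbered 1. None of these passed the test in any of the fits named. The offsets also called Mrc1 between HET and WT in IL-6 (0.30, edgeR adjusted p = 0.0121) and the difference of responses of Il21r (-0.28, 0.0242). Leaving out 1 library turned the sign of uncalled values of Stat6 (-0.06 to 0.15 in WT, -0.09 to 0.02 averaged), Arg1 (-1.35 to 0.36 between genotypes in control, -1.31 to 0.40 for the difference), Il13ra1 (-0.04 to 0.34 for the difference) and Dnmt3a (-0.56 to 0.09 for IL-6 in HET, -0.37 to 0.24 between genotypes in IL-6, -0.05 to 0.63 for the difference).

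Over all tested genes, calls without both HET libraries numbered 2 were 835 for IL-6 in HET, 1715 averaged, 203 and 862 between genotypes in control and IL-6 (against 3021), and 428 for the difference. Without both numbered 1 they were 697, 1724, 79, 1042 and 188. Fits on the compared groups alone called 3945 for IL-6 in HET and 437 between genotypes in control, no filter called 1078 in control, and the offsets called 1554 between genotypes in IL-6 and 1739 for the difference. With 1 library left out the counts ran from 33 to 1304 in control, 879 to 4000 in IL-6, 304 to 2123 for the difference, 1203 to 3061 for IL-6 in HET and 1577 to 3073 in WT. Depth limits Arg1, Chil3, Retnla and Pdcd1lg2, where single reads move a value.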
